A study of Mus musculus with 20 samples.

Results

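The 31 genes described here make sterols and fatty acids in mouse CD4 T cells, control that synthesis or export sterol from the cell. They were chosen by symbol as a fixed list, with earlier results of these data known. All 31 were found among the 39179 gene IDs counted in each of 20 RNA libraries. They comprise 8 genes of the mevalonate and isoprenoid steps, 11 of the steps from squalene to cholesterol, 5 of SREBP control and sterol transfer, 2 of sterol efflux and 5 of fatty acid synthesis. The study asked what IL-6 receptor signalling does for Th17 cells (IL-17-producing helper T cells), in C57BL/6 mice that carried or lacked Il6ra, which encodes the alpha chain of that receptor.

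In the transfer experiments, wild-type (CD45.1) and Il6ra-/- (CD45.2) CD4 T cells carried an Il17f/Thy1.1 reporter, which puts Thy1.1 on cells that express Il17f. Both genotypes were cultured with TGF-beta (2.5 ng/ml) and hyper-IL-6 (20 ng/ml), in which IL-6 is joined to soluble receptor so that cells without their own receptor also respond, together with anti-CD3, anti-IFN-g, anti-IL-4 and irradiated splenic antigen-presenting cells. The Thy1.1+ fraction gave 2 libraries of each genotype before transfer. The genotypes were then placed together into Rag1-/- mice, which lack T and B cells of their own but keep their other cells, and after 4 weeks CD4+ TCRb+ cells of the colon were sorted by CD45 allele, 3 pooled libraries per genotype. The colon sort did not use the reporter, so stage, tissue and gate changed together and cannot be told apart. Library 0 of each transfer group belonged to the first experiment, libraries 1 and 2 to the second. In the culture part, all cells were heterozygous for the IL-17F/Thy1.1 reporter, and there were 2 libraries each of wild-type naive cells, Il6ra-/- naive cells, wild-type Thy1.1+ cells cultured for 6 days with TGF-beta (2.5 ng/ml) and IL-6 (20 ng/ml), wild-type Thy1.1+ cells cultured with TGF-beta and hyper-IL-6 (63 ng/ml), and Il6ra-/- Thy1.1+ cells cultured with TGF-beta and hyper-IL-6 (63 ng/ml). A 4 h exposure to PMA plus ionomycin is labelled for all 10 culture libraries, the naive ones included.

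Cells build cholesterol from acetyl-CoA through mevalonate, farnesyl diphosphate, squalene and lanosterol. When sterol in the endoplasmic reticulum is low, SCAP escorts the SREBP transcription factors to the Golgi for cleavage, and they then switch on most genes of the pathway; INSIG holds SCAP back when sterol is high. Oxysterols act in the other direction through LXR, which switches on the efflux pumps ABCA1 and ABCG1. Dividing T cells raise sterol and fatty acid synthesis to build membrane.

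Gene totals were between 12718633 and 23745060 counts in the transfer libraries and between 20160774 and 46848016 in the culture libraries, so a level of 1 CPM (the usual count per library total, scaled) rests on more than 10 counts. Levels below are CPM scaled by TMM within each part, and the parts were scaled and fitted separately. Nothing in the labels says that libraries of a group came from separate animals, apart from the pools, so p-values measure the spread between libraries. The Il6ra gene was counted in every library, at 80.6 and 123 CPM in the Il6ra-/- libraries before transfer beside 84.2 and 72.8 CPM in the wild-type ones. The labels do not say which part of the gene was deleted, so this count does not check them. Wild-type library 1 before transfer stood apart: ribosomal protein genes took 3.56% of its counts and 1.28% of those of library 0. Wild-type colon library 2 had 4.28% of counts in mitochondrial genes, against 2.27% and 2.16% in the other 2. The T cell markers summed to between 5680 and 9312 CPM before transfer and between 7245 and 8027 CPM in the colon, and adipocyte markers reached at most 0.274 CPM in any transfer library.

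All 31 genes passed the filter on low counts in both parts. Per kilobase of exon, wild-type cells before transfer had Scd2 highest at 285 ± 152 CPM per kb (SD, n = 2), then Hmgcs1, Acly, Srebf2 and Cyp51 at 98.1, 84.9, 73.7 and 73.2 CPM per kb, with spreads that overlap. Idi1 (0.697 CPM per kb), Abca1 and Acaca were lowest. In wild-type colon, Acly (58.4 CPM per kb) and Srebf2 (47.1 CPM per kb) were highest, followed by Scd2 at 31.4 CPM per kb. In the heat map of levels by library, all libraries before transfer lie apart from all colon libraries in 23 of the 31 rows. All naive libraries lie apart from all cultured ones in 26. The shares of all genes for these pooled groups are not given here. Between the 2 wild-type groups alone, 28.4% of all genes were higher and 26.6% lower in every colon library. In every wild-type hyper-IL-6 library against wild-type naive cells, 44.3% were higher and 40.5% lower.

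**Figure D1:**
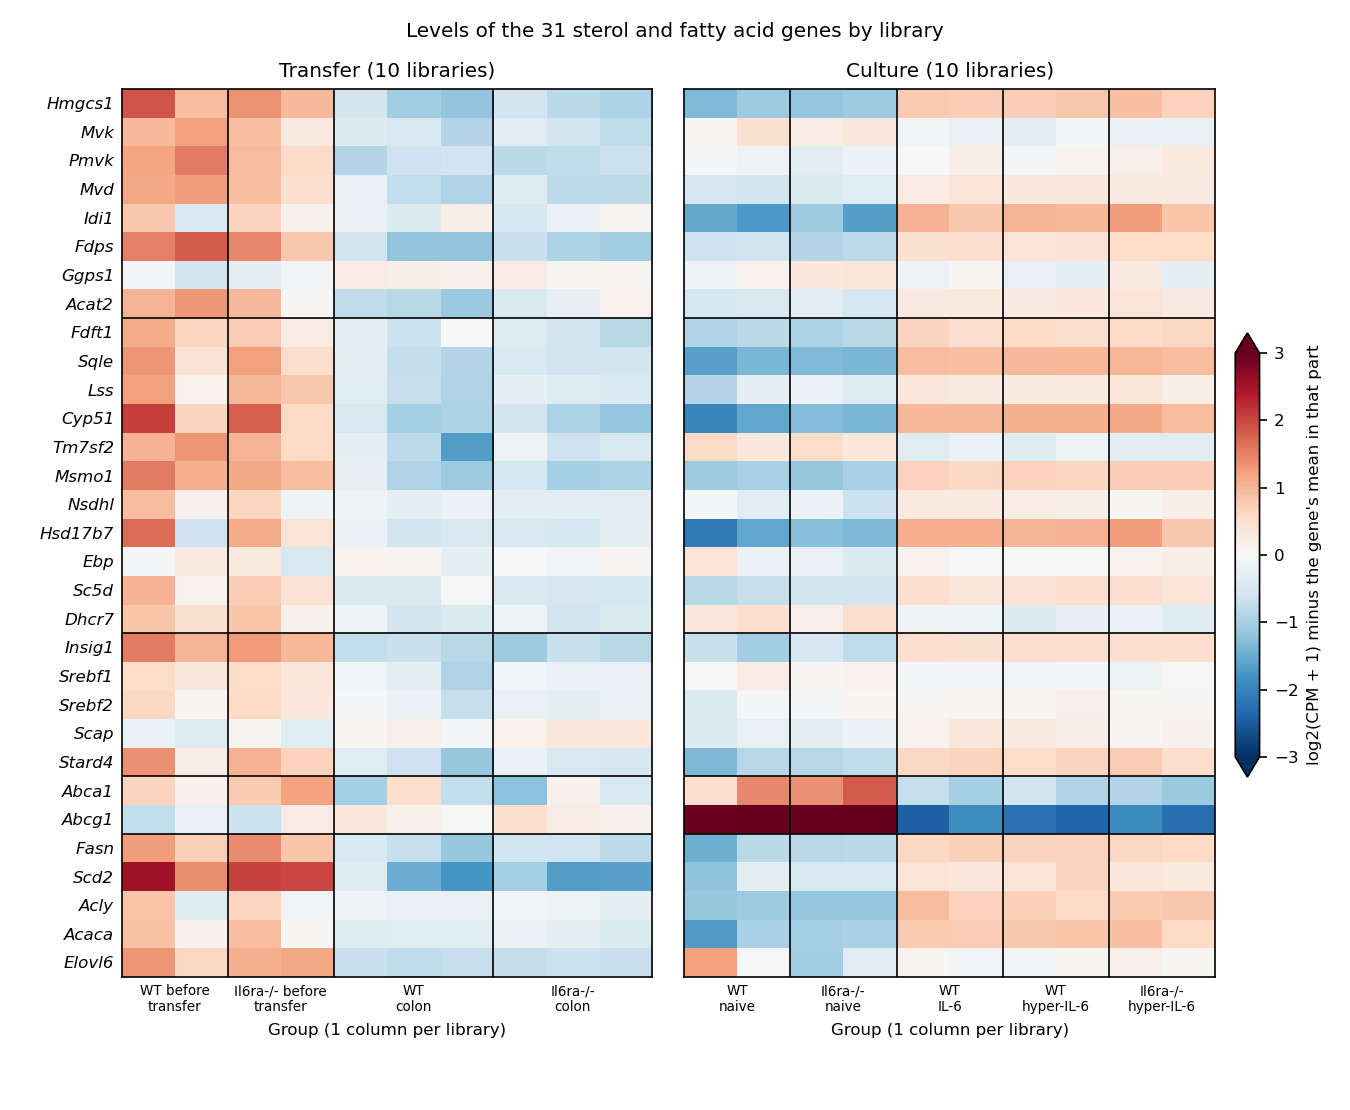
Level of each of the 31 genes (rows, grouped by role) in each library (columns), as log2(CPM + 1) minus the gene's mean over the 10 libraries of that part. Red is higher and blue lower, the colours end at 3 log2 units in either direction, and Abcg1 in naive cells runs past that end. Most rows are red before transfer, blue in the colon, blue in naive cells and red in cultured cells.

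The promoters of 4 members are shown as examples of some of the patterns found below. Hmgcs1 fell in the colon and rose in culture. Cyp51 did the same, without the searched form of the sterol regulatory element in this window. Tm7sf2 fell in both settings, and Abca1 is an efflux gene that fell in culture. The sequences are from RefSeq (GRCm38.p6), run 5′ to 3′ on the gene's strand from 250 bases before to 50 bases after the annotated start, and carry 4 motifs in capitals on either strand: the sterol regulatory element TCACNCCAC, the CCAAT box, the GC box GGGCGG and the E-box CACGTG. No match shares a base with another in these 4 windows. The RefSeq starts of Cyp51 and Tm7sf2 lie inside the GENCODE genes. The Cyp51 window still covers the GENCODE start, and the Tm7sf2 window does not.
Hmgcs1 (chr13:119690101-119690400, plus strand): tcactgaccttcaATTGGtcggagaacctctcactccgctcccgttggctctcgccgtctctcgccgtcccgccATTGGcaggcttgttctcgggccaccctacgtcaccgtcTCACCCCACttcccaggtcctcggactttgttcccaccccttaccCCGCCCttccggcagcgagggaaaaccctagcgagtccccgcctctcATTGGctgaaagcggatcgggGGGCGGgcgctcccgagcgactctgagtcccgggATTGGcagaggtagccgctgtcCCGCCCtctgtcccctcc
Cyp51 (chr5:4104648-4104947, minus strand): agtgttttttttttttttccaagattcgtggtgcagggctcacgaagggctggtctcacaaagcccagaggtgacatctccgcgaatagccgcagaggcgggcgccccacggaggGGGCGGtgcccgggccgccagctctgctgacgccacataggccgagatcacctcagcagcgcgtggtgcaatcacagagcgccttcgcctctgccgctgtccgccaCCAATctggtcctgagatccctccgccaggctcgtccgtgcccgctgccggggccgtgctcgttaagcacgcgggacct
Tm7sf2 (chr19:6067801-6068100, minus strand): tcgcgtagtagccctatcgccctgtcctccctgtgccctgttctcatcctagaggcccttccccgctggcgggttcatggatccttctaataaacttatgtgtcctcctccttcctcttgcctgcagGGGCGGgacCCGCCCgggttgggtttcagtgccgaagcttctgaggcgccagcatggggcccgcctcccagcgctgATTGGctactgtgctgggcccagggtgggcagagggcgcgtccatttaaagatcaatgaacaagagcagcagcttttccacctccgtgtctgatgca
Abca1 (chr4:53159846-53160145, minus strand): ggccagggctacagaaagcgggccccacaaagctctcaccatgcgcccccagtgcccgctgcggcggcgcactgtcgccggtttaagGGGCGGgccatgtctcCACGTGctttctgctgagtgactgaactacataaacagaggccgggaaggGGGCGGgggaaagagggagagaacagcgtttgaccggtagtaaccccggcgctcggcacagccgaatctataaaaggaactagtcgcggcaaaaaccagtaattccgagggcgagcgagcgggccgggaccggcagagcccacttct
A promoter was matched for 25 of the 31 genes, not for Scd2, Abcg1, Fdps, Sqle, Fdft1 and Stard4. The TCACNCCAC element was found in 1 of the 25 (4.0%), Hmgcs1, beside 1.44% of 27025 genes with a promoter of the same length. CCAAT, the motif of NF-Y, a partner of SREBP, was in 20 of 25 (80.0%) beside 41.1% of all genes, and GGGCGG, the motif of Sp1, in 20 of 25 (80.0%) beside 38.2%. CACGTG was in 6 of 25 (24.0%) beside 8.09%. These are matches of letters, not measured binding, and other forms of the sterol regulatory element were not searched.

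Genes of the first, mevalonate section were high before transfer and low in the colon. Hmgcs1, which makes HMG-CoA at the entry of the pathway and whose promoter is printed above, was at 596 and 305 CPM in wild-type cells before transfer and at 108, 76.9 and 69.9 CPM in wild-type colon. The Il6ra-/- libraries were at 409 and 314 CPM before transfer and at 107, 90.2 and 82.5 CPM in the colon. The lowest library before transfer was thus above the highest colon library in both genotypes. Its log2 fold change from before transfer to colon was -2.41 ± 0.30 (SE) in wild type (edgeR adjusted p = 0.000237) and -1.95 ± 0.30 in Il6ra-/- (edgeR adjusted p = 0.000834). Fdps, which makes farnesyl diphosphate, went from 97.8 and 120 CPM to 22.6, 14.3 and 14.3 CPM in wild type. Fdps in Il6ra-/- cells was at 92.9 and 59.1 CPM before transfer and at 20.8, 16.8 and 15.8 CPM in the colon. The groups did not overlap, and the log2 fold changes were -2.67 ± 0.28 and -2.09 ± 0.27.

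Of the 8 mevalonate and isoprenoid genes, 6 fell in wild type and 5 in Il6ra-/- cells, and none rose, where 15.8% and 13.2% of all genes fell. The kinases Mvk and Pmvk and the decarboxylase Mvd, which turn mevalonate into isopentenyl diphosphate, fell in both, with wild-type log2 fold changes of -1.80, -2.14 and -1.85. Acat2, the cytosolic thiolase that joins acetyl-CoA to acetyl-CoA, was at 42.9 and 51.7 CPM in wild type before transfer and at 11.7, 11.2 and 9.00 CPM in wild-type colon. It fell there with a log2 fold change of -2.15 ± 0.30 (edgeR adjusted p = 0.000491). In Il6ra-/- cells Acat2 stood at 41.2 and 21.02 CPM, then at 14.5, 17.0 and 21.97 CPM, so that the groups overlapped, and the change did not pass (log2 fold change -0.80 ± 0.30, edgeR adjusted p = 0.0684). Acat2 has a near-identical neighbour, Acat3, between which reads can be split, so its counts are uncertain. Ggps1, which makes geranylgeranyl diphosphate and overlaps Arid4b on the opposite strand, was at 34.6 and 23.9 CPM and then at 42.3, 40.3 and 38.8 CPM in wild type, and did not pass in either genotype. Idi1, which isomerises isopentenyl diphosphate, lay between 0.925 and 3.90 CPM in all 10 transfer libraries.

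The post-squalene section fell in most steps too. Cyp51, which removes a methyl group from lanosterol, was at 470 and 177 CPM in wild type before transfer and at 79.4, 53.9 and 56.5 CPM in the colon. The Il6ra-/- values were 384 and 167 CPM and then 74.4, 56.6 and 48.9 CPM. The libraries of the first experiment were the highest in all 4 groups. The log2 fold change of Cyp51 was -2.35 ± 0.43 in wild type (edgeR adjusted p = 0.00237) and -2.20 ± 0.43 in Il6ra-/- cells (edgeR adjusted p = 0.00369). Sqle, the squalene epoxidase, was at 184 and 98.8 CPM before transfer and at 60.0, 44.7 and 39.7 CPM in wild-type colon, and fell by 1.56 on the log2 scale. Msmo1, which acts after Cyp51 in removing the other methyl groups, was at 162 and 115 CPM and then at 45.6, 28.1 and 25.0 CPM in wild type, with a log2 fold change of -2.08. Cyp51 overlaps Akap9 on the opposite strand.

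Of the 11 genes from squalene to cholesterol, 9 fell in wild type and 8 in Il6ra-/- cells, beside the same 15.8% and 13.2% of all genes. Fdft1, Lss, Tm7sf2, Sc5d and Dhcr7, which are squalene synthase, lanosterol synthase, a sterol reductase, a desaturase and the reductase of the last step, fell in both. Tm7sf2, whose promoter is printed above, was a low gene at 17.3 and 21.1 CPM before transfer and at 6.40, 4.14 and 1.80 CPM in wild-type colon, the last being the library with the high mitochondrial share. Tm7sf2 shares its strand and part of its length with Vps51, so its counts are uncertain, and with the replicate number as a block its fall in Il6ra-/- cells did not pass (edgeR adjusted p = 0.0859). Nsdhl, which works with Msmo1, fell in wild type with a log2 fold change of -0.79 ± 0.27 (edgeR adjusted p = 0.0441, and 0.052 with the block) and did not pass in Il6ra-/- cells. Hsd17b7, the ketoreductase of the same demethylation, was at 108 and 21.02 CPM in the 2 wild-type libraries before transfer, a wide gap, and at 29.0, 22.1 and 23.6 CPM in the colon. It did not pass in either genotype. Ebp, the isomerase, was the one gene of the section with near-equal means, 63.0 ± 9.2 CPM before transfer (SD, n = 2) and 56.7 ± 8.2 CPM in colon (SD, n = 3).

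Among the control genes, Insig1, itself an SREBP target that retains SCAP, was at 199 and 141 CPM in wild type before transfer and at 40.6, 42.5 and 37.9 CPM in the colon. Insig1 in Il6ra-/- cells was at 168 and 138 CPM and then at 32.0, 42.4 and 38.1 CPM. No library overlapped between the stages, and Insig1 fell by 2.08 ± 0.21 (edgeR adjusted p = 6.07e-05) and by 2.03 ± 0.21 (edgeR adjusted p = 7.24e-05) on the log2 scale. Stard4, which carries cholesterol between membranes, fell by 1.59 and 1.26. The SREBP genes moved less. Srebf1 fell in wild type (log2 fold change -0.84 ± 0.23) and Srebf2 in Il6ra-/- cells (-0.71 ± 0.24, edgeR adjusted p = 0.0484, and 0.107 with the replicate block). In the other genotype Srebf1 had -0.63 ± 0.23 and Srebf2 -0.65 ± 0.24, neither of which passed. Scap was at 75.8 and 66.2 CPM before transfer and at 90.4, 96.5 and 83.7 CPM in wild-type colon, above the earlier libraries without passing.

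The efflux genes did not pass in either genotype. Abcg1 was at 25.7 and 37.3 CPM before transfer and at 55.1, 48.2 and 43.7 CPM in wild-type colon, higher in every colon library (log2 fold change 0.64 ± 0.29, edgeR adjusted p = 0.108). The Il6ra-/- groups of Abcg1 overlapped, at 27.5 and 51.4 CPM and then at 62.5, 51.0 and 47.6 CPM. Abca1 was at 14.9 and 9.91 CPM and then at 4.01, 13.5 and 5.05 CPM in wild type, with overlapping groups. In Il6ra-/- cells every colon library was lower, with Abca1 at 16.2 and 22.3 CPM before transfer and at 3.29, 9.96 and 6.23 CPM in the colon (log2 fold change -1.58 ± 0.54, edgeR adjusted p = 0.0535).

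Fatty acid synthesis held the widest change of the list. Scd2, a stearoyl-CoA desaturase, was at 2142 and 970 CPM in wild type before transfer and at 279, 130 and 107 CPM in the colon. Scd2 in Il6ra-/- cells was at 1499 and 1478 CPM and then at 182, 114 and 117 CPM. Every colon library was well below every library before transfer. Scd2 fell by 3.18 ± 0.44 (edgeR adjusted p = 0.000491) and by 3.44 ± 0.45 (edgeR adjusted p = 0.00033) on the log2 scale. Fasn, the fatty acid synthase, was at 561 and 384 CPM and then at 171, 146 and 107 CPM in wild type, a log2 fold change of -1.74 ± 0.26, and had -1.81 ± 0.26 in Il6ra-/- cells. The elongase Elovl6 fell by 1.75 and 1.83, from 123 and 75.1 CPM to 30.4, 28.2 and 29.7 CPM in wild type. Acaca, the carboxylase that makes malonyl-CoA, fell by 0.97 and 0.88 (with the block, edgeR adjusted p = 0.0695 in Il6ra-/- cells). Acly, which makes cytosolic acetyl-CoA, was at 630 and 267 CPM before transfer and at 324, 305 and 296 CPM in wild-type colon, and did not pass.

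**Figure D2:**
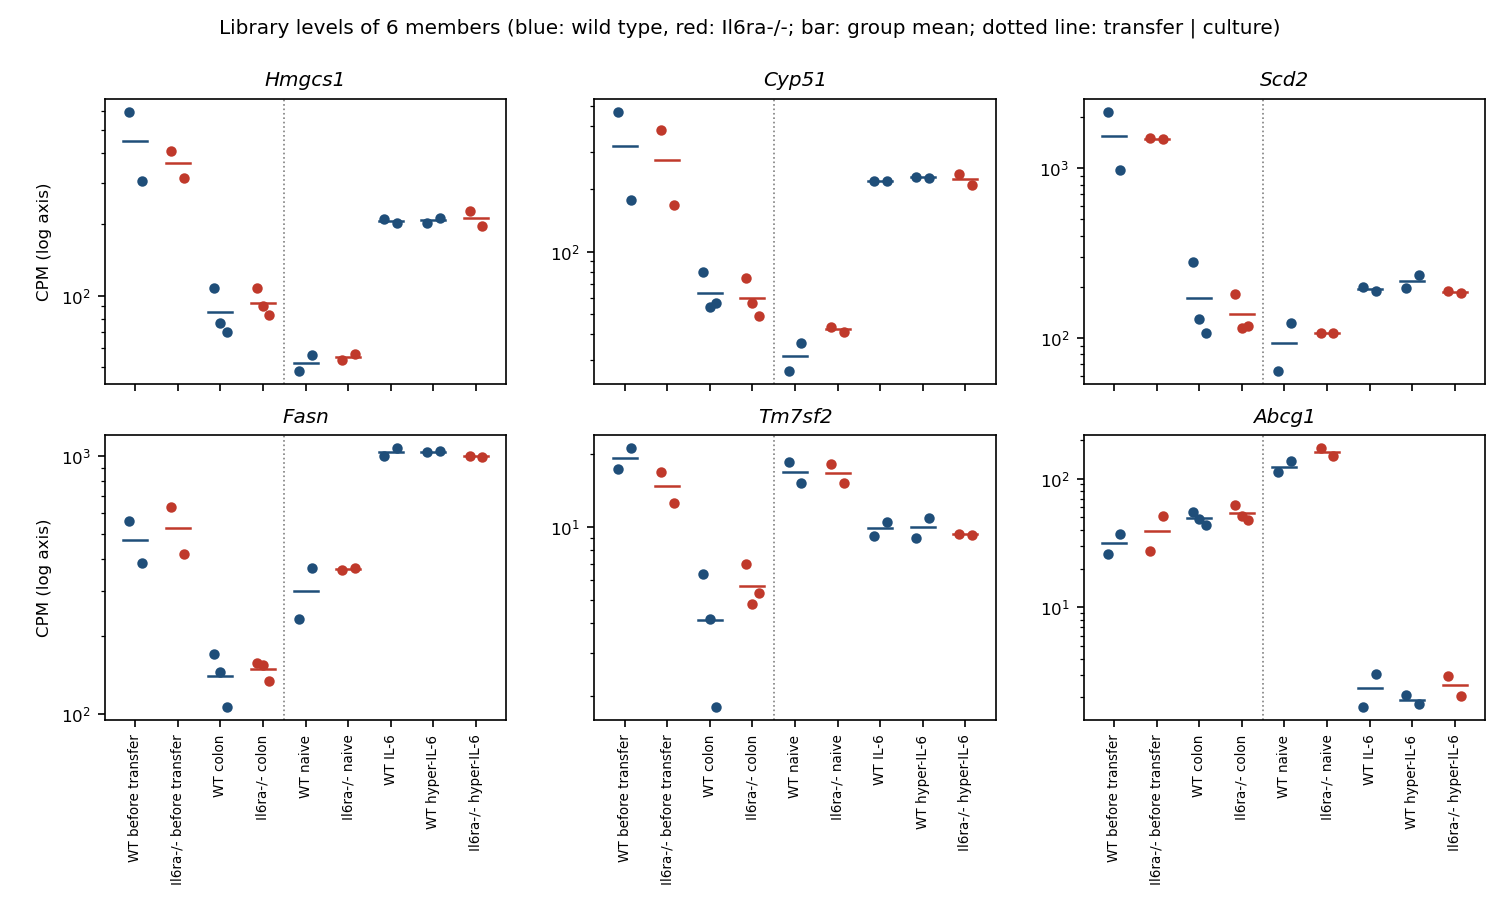
CPM of 6 members in every library on a log axis, by group, with wild type in blue, Il6ra-/- in red and a bar at the group mean. Hmgcs1, Cyp51, Scd2 and Fasn are high before transfer, low in the colon and in naive cells and higher in culture, Tm7sf2 is lower in colon and in culture, and Abcg1 is lowest in culture, between 1.68 and 3.02 CPM.

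In all, 22 of the 31 genes fell and 0 rose in wild type from before transfer to colon, where 15.8% of the 14225 genes tested fell and 17.1% rose. In Il6ra-/- cells 20 fell and 0 rose, beside 13.2% and 13.8% of all genes. The median log2 fold change of the 31 was -1.44 in wild type and -1.26 in Il6ra-/- cells, beside -0.02 and 0.00 over all genes tested. Every colon library lay below every library before transfer for 23 of the 31 in wild type (26.6% of all genes) and for 26 of the 31 in Il6ra-/- cells (27.9%). The 2 comparisons share no library, but the genotypes were placed together into the same recipients and tested in 1 fit. In both, 19 genes fell: Hmgcs1, Mvk, Pmvk, Mvd, Fdps, Fdft1, Sqle, Lss, Cyp51, Tm7sf2, Msmo1, Sc5d, Dhcr7, Insig1, Stard4, Fasn, Scd2, Acaca and Elovl6. The share of all genes that fell in both is not given here. The genes that passed in neither were Idi1, Ggps1, Hsd17b7, Ebp, Scap, Abca1, Abcg1 and Acly. In these bulk libraries, fewer cells with a transcript and less of it per cell cannot be told apart. Without Il6ra-/- library 0 before transfer, 11 instead of 20 genes fell in Il6ra-/- cells, where 9.43% of all genes then fell.

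The fall was present in both transfer experiments. The median log2 ratio of colon to before transfer over the 31 genes was -1.45 in the first and -0.955 in the second experiment for wild type, and -1.23 and -0.941 for Il6ra-/- cells. In all 4 pairs of genotype and experiment, 24 genes were lower in the colon. The share of all genes is not given for this count or for the counts between experiments that follow. The libraries before transfer themselves differed between experiments: 23 of 31 genes in wild type and 27 of 31 in Il6ra-/- cells were higher in the first, by a median of 0.544 and 0.427 on the log2 scale. Cell cycle genes moved the same way, with summed levels of 5379 and 5985 CPM in the first experiment (wild type and Il6ra-/-) and 2845 and 2566 CPM in the second. Their colon sums in the first experiment were 2091 CPM in wild type and 1951 CPM in Il6ra-/- cells. In the second they were 2628 and 3009 CPM in wild type and 2509 and 2066 CPM in Il6ra-/- cells. The cell cycle sums thus differed between stages mainly in the first experiment. Of these 18 genes, 10 fell in wild type, beside 15.8% of all genes. Epithelial markers summed to between 43.3 and 115 CPM in wild type before transfer and to between 205 and 781 CPM in wild-type colon, with 8 of 12 higher, and myeloid markers to between 23.0 and 36.5 CPM and then 143 and 439 CPM, with 11 of 12 higher. Before transfer up to 5 of the 12 epithelial markers were at 0. B cell markers summed to at most 11.2 CPM in the transfer libraries, and stromal and endothelial markers to 127 CPM in both wild-type libraries before transfer and to between 125 and 178 CPM in wild-type colon. The part of dividing or other cells in the fall was not tested.

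**Figure D3:**
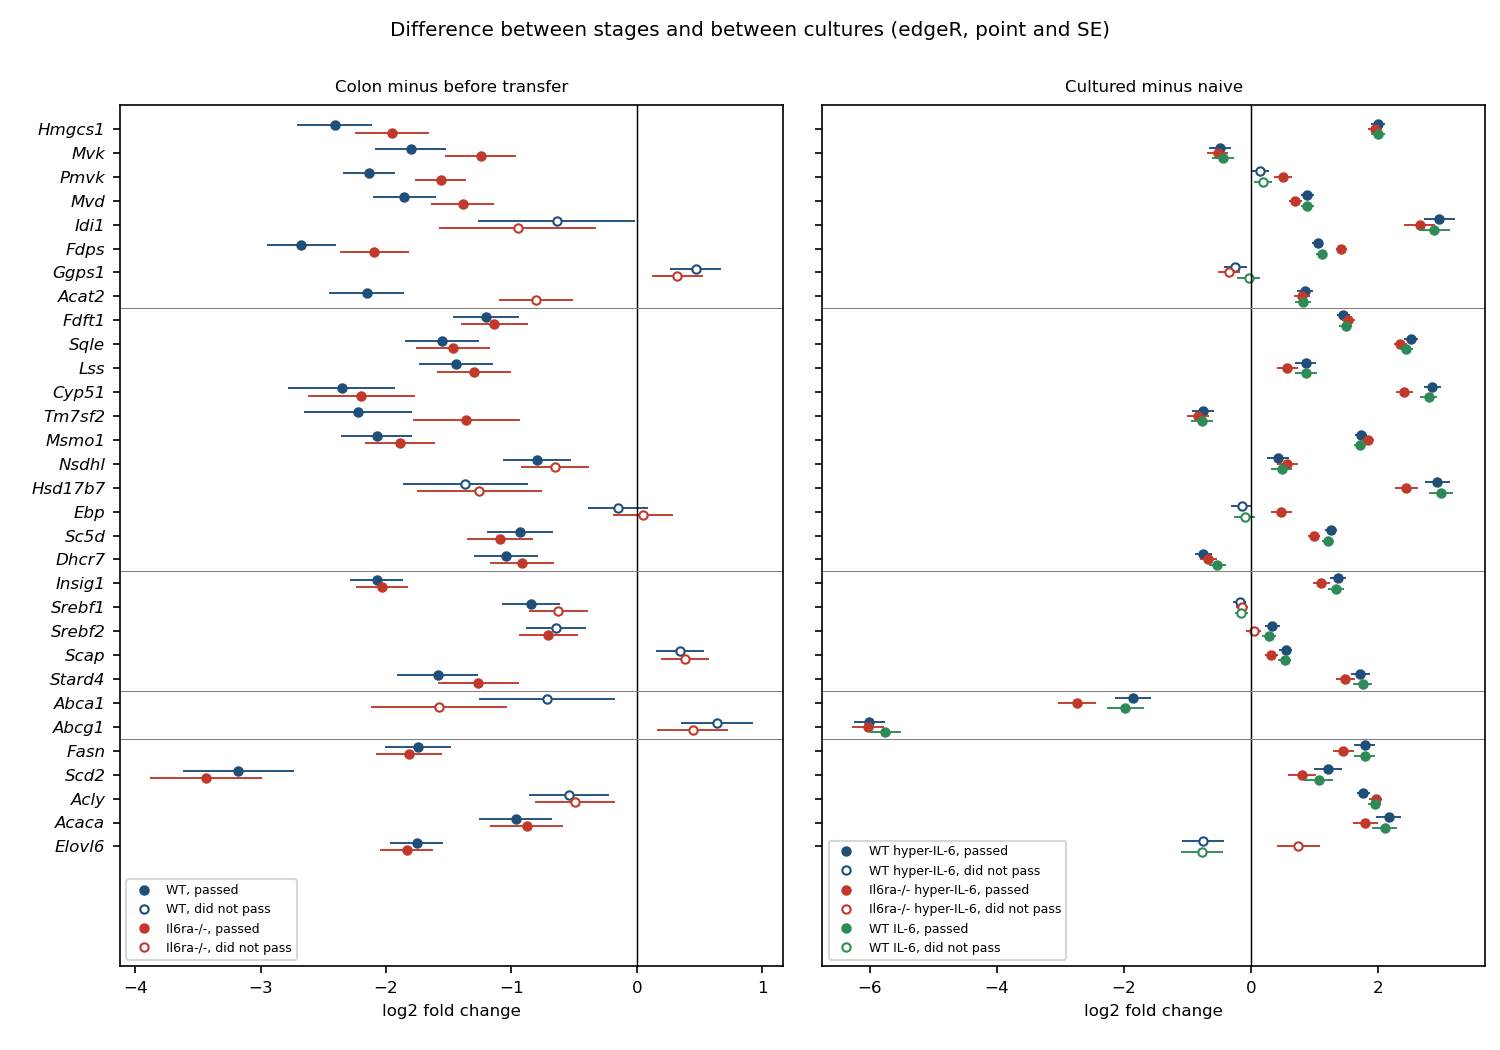
Log2 fold change with its standard error for each of the 31 genes, colon minus before transfer on the left and cultured minus naive on the right, filled where the gene passed. On the left most points of both genotypes lie below 0 and Scd2 is farthest out. On the right Abcg1 is near -6 in all 3 cultures and Dhcr7, Mvk and Tm7sf2 are the enzymes that fell in all 3.

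In the colon, no gene of the 31 passed the test between genotypes (0.155% of all genes did), 1 gene had an unadjusted p under 0.05, and DESeq2 called 0 of the 31 (0.919% of its genes). With libraries blocked by number within a stage the count was again 0, beside 0.661% of all genes. Log2 fold changes of Il6ra-/- against wild type were between -0.32 for Fdft1 and 0.75 for Acat2. Hmgcs1, Fasn and Srebf2, for example, had 0.14 ± 0.27, 0.08 ± 0.24 and 0.05 ± 0.21. The 95% interval lay within 1 log2 unit of 0 for 25 of the 31, so that larger differences were outside the interval for those and inside it for the other 6. Of the 31 genes, 1 had non-overlapping groups with Il6ra-/- higher (8.6% of all genes) and 2 with Il6ra-/- lower (7.17%). The gene with the highest point, Acat2, was at 14.5, 17.0 and 21.97 CPM in Il6ra-/- and at 11.7, 11.2 and 9.00 CPM in wild-type colon (edgeR adjusted p = 0.82). CD8 and NK cell markers summed to between 163 and 217 CPM in Il6ra-/- colon and to between 63.6 and 68.2 CPM in wild-type colon.

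Before transfer, 0 of the 31 genes differed between genotypes (0.00703% of all genes did), 1 had an unadjusted p under 0.05, and DESeq2 called 0 (0.105%). That gene was Pmvk, at 66.8 and 51.3 CPM in Il6ra-/- and at 78.6 and 102 CPM in wild-type cells (log2 fold change -0.62 ± 0.23, edgeR adjusted p = 0.982). Pmvk and Fdps lie 0.395 and 0.762 Mb from Il6ra on chromosome 3 (GRCm38). Fdps had -0.52 ± 0.30, and Mvk, Mvd and Acat2 on other chromosomes had -0.51, -0.51 and -0.60. With Il6ra-/- lower, groups did not overlap for 6 of the 31 (8.06% of all genes): Mvk, Pmvk, Mvd, Fdps, Acat2 and Tm7sf2. With Il6ra-/- higher they did not overlap for 1, Abca1 (8.29% of all genes). The 6 were all higher in wild-type library 1, which stood apart, than in library 0. In the first experiment, Il6ra-/- and wild-type levels were 25.3 and 26.7 CPM for Mvk and 92.9 and 97.8 CPM for Fdps. Acat2 was at 41.2 and 42.9 CPM and Tm7sf2 at 16.9 and 17.3 CPM there. Pmvk and Mvd were further apart, at 66.8 and 78.6 CPM and at 74.5 and 89.3 CPM. The 95% interval lay within 1 log2 unit of 0 for 17 of the 31. Without wild-type library 0, 1 gene of the 31 passed, Hsd17b7, where 7.71% of all genes then passed. The difference between genotypes in the change from before transfer to colon passed for 0 genes of the 31 and 0% of all genes, with 1 of the 31 at an unadjusted p under 0.05 (Acat2, 1.35 ± 0.43) and 0 by DESeq2 (0.0945% of its genes).

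**Figure D4:**
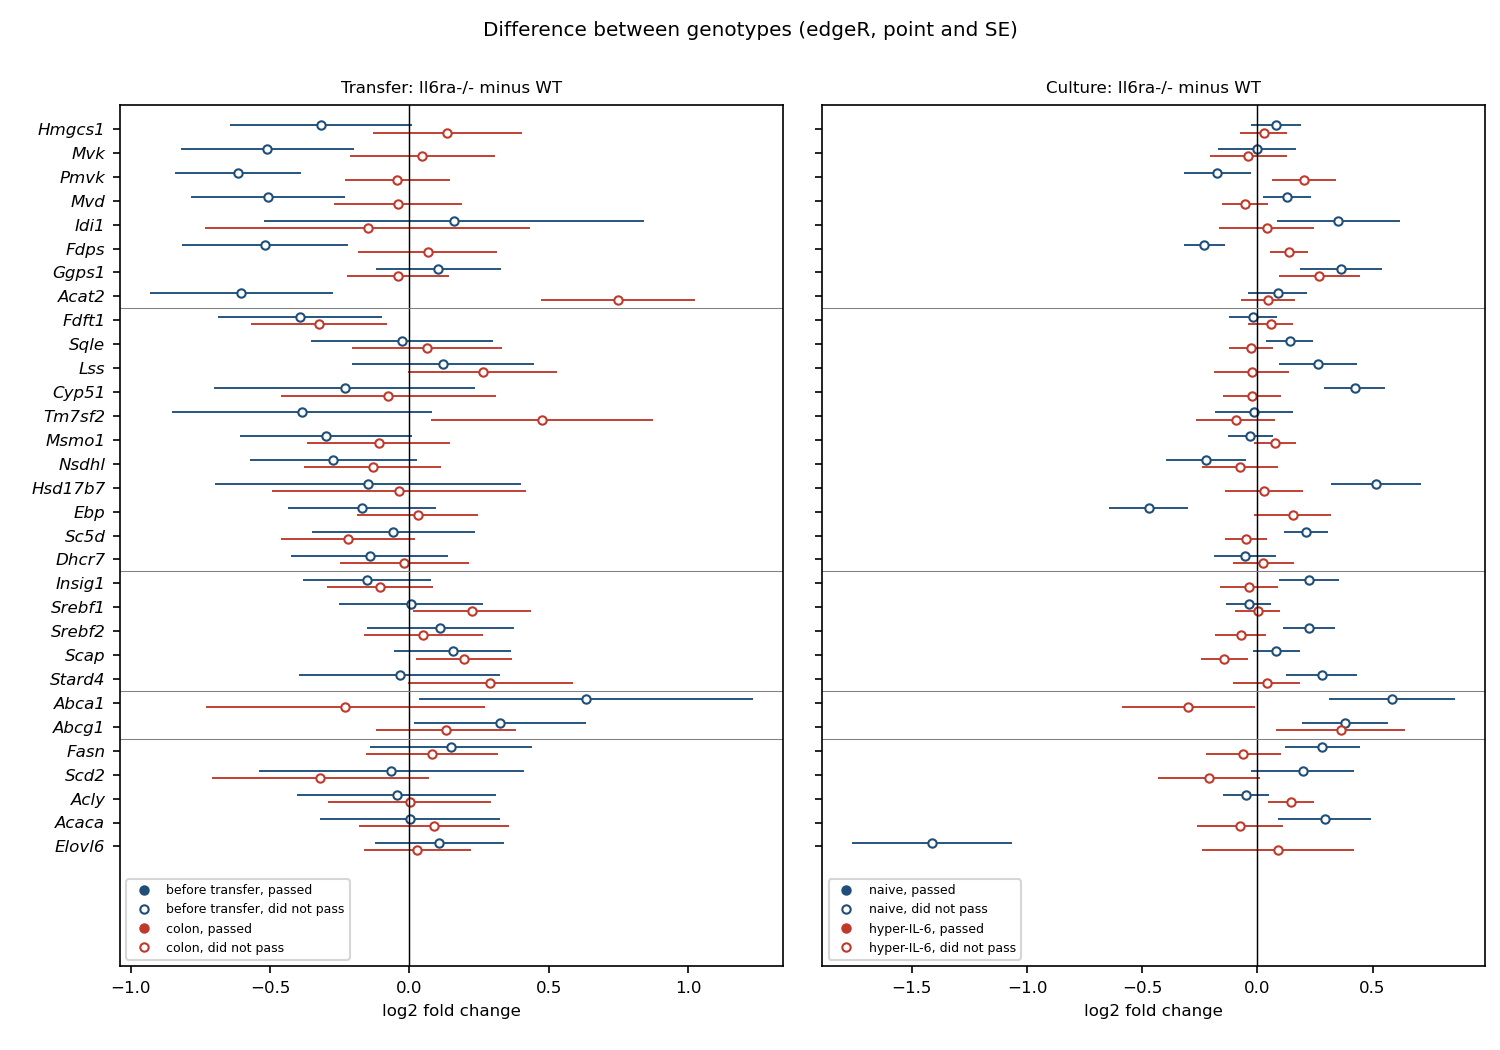
Log2 fold change of Il6ra-/- against wild type with its standard error for each of the 31 genes, before transfer and in the colon on the left, naive and hyper-IL-6 culture on the right. No point passed, and the naive value of Elovl6 at -1.41 is the farthest from 0.

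In culture, the synthesis genes were low in naive cells and high in the Th17 cells made from them. Hmgcs1 was at 48.1 and 56.0 CPM in wild-type naive cells, at 211 and 203 CPM with IL-6 and at 203 and 213 CPM with hyper-IL-6. The Il6ra-/- libraries were at 53.5 and 56.6 CPM when naive and at 227 and 197 CPM with hyper-IL-6. The cultured and naive libraries did not overlap, and Hmgcs1 rose by 2.00 ± 0.11 in wild-type hyper-IL-6 culture (edgeR adjusted p = 3.91e-08) and by 1.94 ± 0.11 in Il6ra-/- culture (edgeR adjusted p = 4.44e-08) on the log2 scale. Idi1, low in naive cells at 3.57 and 3.01 CPM, reached 25.7 and 25.4 CPM with hyper-IL-6. Fdps, Mvd and Acat2 rose by 1.05, 0.88 and 0.85 in wild type. Mvk went the other way, from 15.2 and 20.2 CPM to 11.3 and 13.9 CPM (log2 fold change -0.49 ± 0.17, edgeR adjusted p = 0.0232), and its groups did not overlap. Pmvk passed only in the Il6ra-/- comparison, with 0.51 ± 0.14 there beside 0.13 ± 0.14 in wild type, a difference that did not pass as an interaction (edgeR adjusted p = 0.597).

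Past squalene, Cyp51 was at 26.6 and 36.2 CPM in wild-type naive cells and at 228 and 227 CPM with hyper-IL-6, a log2 fold change of 2.85 ± 0.14 (edgeR adjusted p = 1.62e-08). Hsd17b7 was at 9.34 and 14.4 CPM and then at 90.5 and 90.9 CPM, with 2.93 ± 0.19. Sqle rose from 28.4 and 34.2 CPM to 178 and 181 CPM. Msmo1, Fdft1 and Sc5d rose by 1.73, 1.45 and 1.26, and Lss and Nsdhl by 0.86 and 0.42. The reductases Tm7sf2 and Dhcr7 fell. Dhcr7, the last step to cholesterol, was at 40.8 and 45.4 CPM in naive and at 24.2 and 26.9 CPM in hyper-IL-6 libraries (log2 fold change -0.75 ± 0.13, edgeR adjusted p = 0.000454), and Tm7sf2 went from 18.5 and 15.1 to 8.98 and 10.9 CPM. Ebp did not pass in wild type.

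Among the control and efflux genes, Insig1 rose from 67.7 and 51.6 CPM to 153 and 154 CPM and Stard4 from 23.0 and 33.0 CPM to 88.4 and 95.9 CPM in wild-type cells. Scap rose by 0.55 and Srebf2 by 0.34, while Srebf1 was at 185 and 214 CPM in naive and at 174 and 178 CPM in hyper-IL-6 libraries and did not pass. Abcg1 had the widest difference of all members. It was at 112 and 136 CPM in wild-type naive cells, at 1.68 and 3.02 CPM with IL-6 and at 2.07 and 1.77 CPM with hyper-IL-6. In Il6ra-/- cells Abcg1 was at 172 and 150 CPM when naive and at 2.91 and 2.04 CPM with hyper-IL-6. Its log2 fold change was -6.01 ± 0.25 in wild type (edgeR adjusted p = 5.92e-09) and -6.03 ± 0.25 in Il6ra-/- cells (edgeR adjusted p = 5.3e-09). Abca1 fell from 28.6 and 55.7 CPM to 13.1 and 10.2 CPM, by 1.86 ± 0.29 on the log2 scale.

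Fatty acid synthesis rose in 4 of its 5 genes. Acly was at 288 and 298 CPM in wild-type naive cells and at 1040 and 955 CPM with hyper-IL-6, and Fasn at 234 and 367 CPM and then at 1033 and 1045 CPM. Acaca rose from 15.8 and 27.2 CPM to 95.9 and 97.5 CPM, by 2.16 ± 0.20 on the log2 scale. Scd2 rose by 1.21 ± 0.23, to 196 and 236 CPM. Elovl6 was at 54.3 and 22.7 CPM in the 2 wild-type naive libraries and at 22.2 and 23.2 CPM with hyper-IL-6, and did not pass in any of the 3 comparisons with naive cells.

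With hyper-IL-6, 21 of the 31 genes rose and 5 fell in wild type, where 36.8% of the 14926 genes tested rose and 33.5% fell. In Il6ra-/- cells 22 rose and 5 fell (37.5% and 34.4% of all genes), and with IL-6 in wild type 21 rose and 5 fell (37% and 33.6%). The median log2 fold change of the 31 was 0.88, 0.80 and 0.89, beside 0.04, 0.04 and 0.05 over all genes. In all 3 comparisons the same 5 genes, Abca1, Abcg1, Dhcr7, Mvk and Tm7sf2, fell and 20 genes rose. The shares of all genes that fell or rose in all 3 are not given here. The hyper-IL-6 and IL-6 comparisons of wild type share the naive libraries. Cell cycle genes summed to 716 and 603 CPM in the wild-type naive libraries and to 3616 and 4072 CPM with hyper-IL-6, and all 18 rose. T cell markers summed to 5786 and 5581 CPM and then to 2718 and 2812 CPM. Their part in these changes was not tested, and culture, reporter gate and division cannot be told apart here.

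Among the cultured cells, no gene of the 31 passed for the form of IL-6 or for genotype. Hyper-IL-6 (63 ng/ml) against IL-6 (20 ng/ml) in wild type, forms given at different doses, called 0 of 31 (0% of all genes, 0 of the 31 at an unadjusted p under 0.05, 0 by DESeq2, where 0.00421% of its genes passed). Il6ra-/- against wild type with hyper-IL-6 called 0 of 31 as well (0% of all genes, 0 at an unadjusted p under 0.05, 0 by DESeq2, with 0.0126% of its genes). Log2 fold changes were between -0.25 and 0.15 for the first and between -0.30 and 0.36 for the second, with Abcg1 at the edge of both ranges at levels under 4 CPM. For all 31 genes the 95% interval lay within 1 log2 unit of 0 in both comparisons. Scd2, for example, was at 196 and 236 CPM in wild type and at 189 and 184 CPM in Il6ra-/- cells with hyper-IL-6.

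Between naive cells of the 2 genotypes, 0 of the 31 passed by edgeR (0.0067% of all genes), 6 had an unadjusted p under 0.05, and DESeq2 called 1 (0.822% of its genes), Elovl6. Elovl6 was at 10.5 and 18.15 CPM in Il6ra-/- and at 54.3 and 22.7 CPM in wild-type naive cells, with a log2 fold change of -1.41 ± 0.35 (edgeR adjusted p = 0.301). The 2 wild-type naive libraries differed from each other more than the Il6ra-/- ones in this gene. Without wild-type naive library 2, 11 of the 31 and 5.78% of all genes passed; the library then left, library 1, had the highest ribosomal protein share of the culture part (6.41%). Cyp51, Hsd17b7, Sc5d, Ebp and Fdps were the other genes at an unadjusted p under 0.05, with 0.42, 0.51, 0.21, -0.47 and -0.23. The interaction of genotype and culture called 0 of 31 (0% of all genes), with 5 at an unadjusted p under 0.05 and 0 by DESeq2 (0.398% of its genes). Without wild-type naive library 2, 7 of the 31 and 2.51% of all genes passed.

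The changes after transfer and in culture used separate libraries, so the 2 sets of wild-type values can be read side by side. Of the 22 genes that fell in wild-type colon, 16 (72.7%) rose with hyper-IL-6, which is 76.2% of the 21 that rose. Of the 13055 genes tested in both parts, 59.8% of those that fell in wild-type colon rose in this culture, and 25.3% of those that rose fell in the colon. The 16 members were Hmgcs1, Mvd, Fdps, Acat2, Fdft1, Sqle, Lss, Cyp51, Msmo1, Nsdhl, Sc5d, Insig1, Stard4, Fasn, Scd2 and Acaca. Dhcr7, Mvk and Tm7sf2 fell in both. The remaining 3, Pmvk, Srebf1 and Elovl6, fell in the colon and did not pass in culture.

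**Figure D5:**
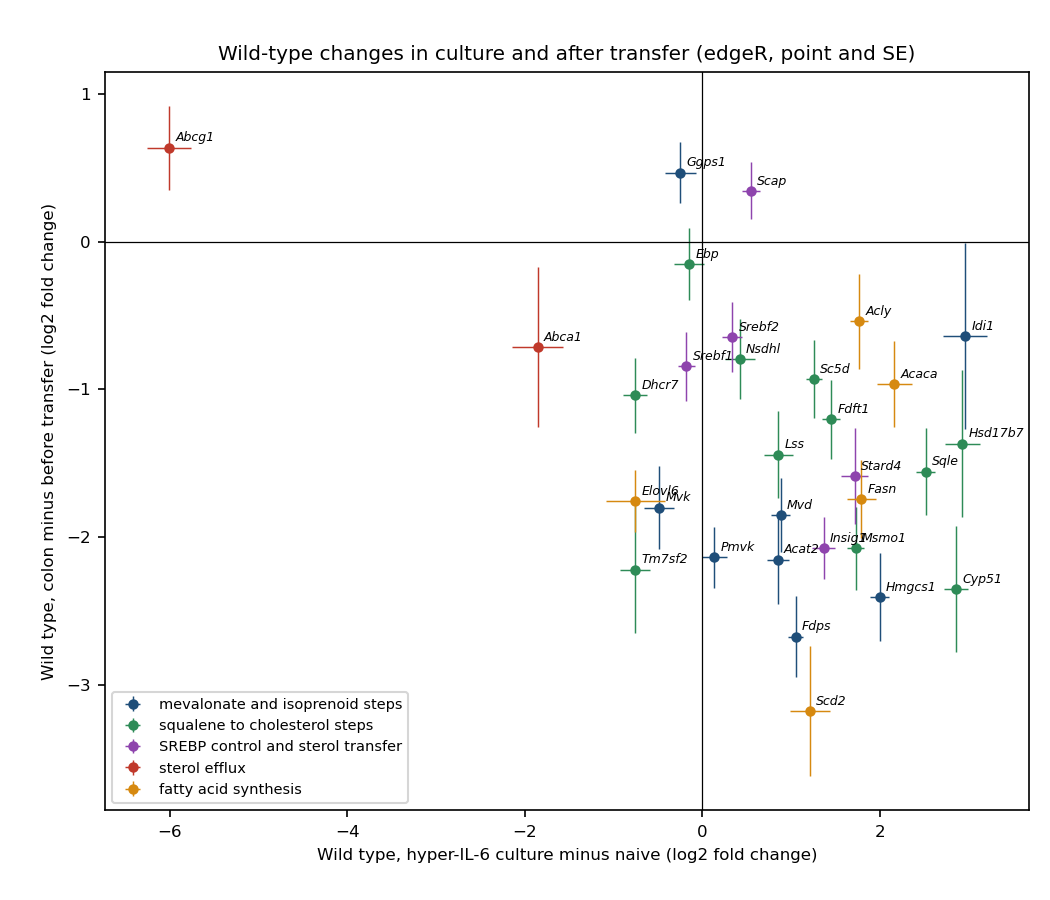
Log2 fold change of each gene in wild-type hyper-IL-6 culture against naive cells (horizontal) and in wild-type colon against before transfer (vertical), with standard errors and colours by role. Most synthesis genes lie at the lower right, higher in culture and lower in colon, Mvk, Dhcr7 and Tm7sf2 at the lower left, and Abcg1 at the upper left.

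Other genes of the same pathways gave the counts below, to be read against 17.1% of all genes higher and 15.8% lower in wild-type colon, 13.8% and 13.2% in Il6ra-/- colon, and 36.8% and 33.5% in wild-type hyper-IL-6 culture. Of 12 further SREBP targets, 8 fell and 0 rose in wild-type colon and 9 fell in Il6ra-/- colon. The widest were Acsl3, an acyl-CoA synthetase (-3.57), Fads2, a fatty acid desaturase (-3.56), and Slc25a1, the mitochondrial citrate carrier (-2.26), all as wild-type log2 fold changes. In wild-type hyper-IL-6 culture 7 of 11 rose and 4 fell, among them Tmem97 (3.75) and Acss2 (-4.91), while Fads2 was at 0 CPM in naive and 4.23 CPM in cultured cells. Of 8 LXR and oxysterol genes tested, 4 rose and 2 fell in wild-type colon. They included Smpdl3a (1.58), an LXR target, and Hsd3b7 (-1.66), while Cyp27a1 was at 0 CPM before transfer and 0.717 CPM in the colon. In culture 1 of 8 rose and 5 fell, led by Smpdl3a (-6.82), Mylip (-5.13) and Cyp39a1 (-4.95). Abcg1, from the same LXR programme, had 0.64 and -6.01 in the same comparisons. Of 12 sterol storage and traffic genes, 3 rose and 1 fell in wild-type colon, with Soat2, which makes cholesteryl esters, at 2.42, Nceh1 at 1.48 and Npc2 at -1.35. Epithelial and myeloid marker sums were also higher in wild-type colon, and the part of other cells in the colon rises listed here was not tested. Of 13 fatty acid oxidation genes, 2 rose and 2 fell in wild-type colon, a share near that of all genes, with Cpt1a, the carnitine transferase that admits fatty acids to mitochondria, at 1.26. Of 5 other SREBP control genes, Rnf139 rose (0.64) and Insig2 fell (-0.61) in wild-type colon, and in culture 2 rose and 2 fell. Of 10 other isoprenoid and dolichol genes, the farnesyltransferase subunits Fnta (-0.93) and Fntb (-1.29) fell in wild-type colon and none rose, and in culture 6 rose and 2 fell. Of 17 other fatty acid and lipid genes, 5 fell and 0 rose in wild-type colon, led by Plin2 (-1.81), a lipid droplet coat protein, and in culture 10 rose and 3 fell.

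Across the 9 group means, the genes outside all lists whose log2 CPM was most like the mean of the 31 standardised members were Slc2a1 (r = 0.997), a glucose transporter, Rem2 (0.995), Eno2 (0.993), an enolase, Ndrg1 (0.992) and C1qtnf12 (0.991). These points share the 2 parts, which were scaled separately, and the same stage differences, so the values are a description over 9 groups. The members themselves were least like the mean of the others for Ggps1 (r = -0.622), Abcg1 (-0.524), Scap (-0.207) and Abca1 (-0.167). The mean of the members on that standardised scale was 0.861 and 0.734 before transfer (wild type and Il6ra-/-), between 0.216 and 0.256 in the 3 cultures, -0.572 and -0.456 in naive cells and -0.686 and -0.593 in the colon.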

How the data were processed

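Per the labels' protocols, mRNA of sorted CD4 T cells was sequenced; a stranded mRNA kit is named for the transfer part. The authors deposited 1 table of whole-number read counts per library. Per the submitters' processing notes, STAR 2.5.3 and HTSeq 0.7.2 were used with SAMtools 0.1.18, R 3.4.3 and DESeq2 1.18.1, and the build was GRCm38 (mm10). Strand setting and annotation release are not given in the sources used here, so overlapping genes are uncertain: 13 of the 31 members overlap another annotated gene. Symbols and positions came from GENCODE M21, which names 37607 of 39179 gene IDs. Neither library sizes nor tests used the 5 summary lines, of which the no-feature line held 18.1% to 31.9%.

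Groups came from sample titles (transfer) and source names (culture). Each part was fitted with edgeR 4.0.16 (R 4.3.3), the quasi-likelihood F test, TMM scaling and filterByExpr, with all groups of the part in 1 fit (14225 and 14926 genes). A gene passed at a Benjamini-Hochberg adjusted p under 0.05 over all genes tested, in 12 comparisons. CPM per kb used the union of exons. The test was checked on simulated counts. Same-numbered transfer libraries share an experiment in the labels, and within a stage their deviations correlated at 0.401 before transfer and 0.646, 0.303 and 0.156 in the colon, so the numbers were taken to pair genotypes. Libraries 1 and 2 of the colon belong to 1 experiment and correlated across numbers too (0.43 and 0.303), so the values follow the experiment rather than the number within it. No 2 libraries of a group were duplicates (mean chi-square per gene 6.72 to 238). The members and lists were chosen with earlier results of these data known. All 31 members are reported; of other lists, up to 3 genes of widest change are named, and the 5 genes most like the members; the result for 1 list is not reported here. Alternatives were RLE size factors, no filter, DESeq2 1.42.0, the compared groups only, a replicate block, a term for experiment and leaving out single libraries. Chosen after seeing the data were the block within stage and a fit without the 2 wild-type libraries that stood apart.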

Additional observations from a re-analysis of the deposited data

How the results depend on the processing

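Leaving out 1 library at a time gave between 19 and 25 genes of the 31 past the threshold for colon against before transfer in wild type (22 with all libraries), and between 11 and 21 in Il6ra-/- cells (20), the 11 without Il6ra-/- library 0 before transfer. For culture against naive the range was 23 to 26 in each comparison. For genotype it was 0 to 0 in the colon, 0 to 1 before transfer, 0 to 0 in hyper-IL-6 culture and 0 to 11 in naive cells, for the interactions 0 to 0 (transfer) and 0 to 7 (culture), and for hyper-IL-6 against IL-6 0 to 0. Without wild-type library 0 before transfer, Hsd17b7 turned from lower to higher in Il6ra-/- cells before transfer (log2 fold change 1.49, past the threshold, in a range of -0.90 to 1.49), since the 2 wild-type libraries are at 108 and 21.02 CPM. In naive cells, genotype called 4 genes with no filter on low counts and 1 by DESeq2, and the culture interaction called 2 with no filter. Under the other settings, counts of members stayed within 1.5 times and no member changed direction past the threshold. The fit without both wild-type libraries that stood apart left a single wild-type library before transfer, so its counts are not given. The number of all genes that passed also varied with the library left out. Except where a share stands beside a fit above, none is given for these ranges or for the counts with no filter. With the replicate block, 21 and 17 genes fell in the colon in wild type and Il6ra-/- cells, where 12.7% and 10.8% of all genes fell. The block left each count of 0 at 0 and changed no call but those named beside their genes. In the culture part, the labels do not say that same-numbered libraries belong together. Their correlations were between -0.0782 and 0.267, the highest between naive cells of the 2 genotypes. The block gave 26, 27 and 26 against naive cells, beside 69.2%, 70.9% and 69.5% of all genes. The 2 or 3 libraries per group limit what the genotype comparisons can show; the compared-groups-only fit was not run for the transfer interaction.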
